A study of Mus musculus with 9 samples.

Results

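The genes described here are the protein-coding genes whose symbols name proteasome subunits or their partners, Psma, Psmb, Psmc, Psmd, Psme, Psmf or Psmg followed by a number, in GENCODE mouse release M21. This rule found 50 of the 55450 genes in the files, of which 49 had a mean count of at least 5 and were tested, and 1, *Psmb11*, did not. The study collected RNA from the developing and the mature pituitary gland of mice bred on a mixed 129Sv/c57BL6J background. The embryo group was the Rathke’s pouch of 7 Sox2Egfp/+ embryos at embryonic day 13.5, where 1 copy of *Sox2* carries Egfp. The adult group was the pituitary of 2 mice at postnatal week 8 after the posterior lobe had been taken off, and the labels give no *Sox2* genotype for them. No treatment is given for either group, and the numbers of animals and of libraries are the same.

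The 26S proteasome degrades proteins that carry ubiquitin chains. Its 20S core is a barrel of stacked rings, in which the alpha subunits form the gated ends and the beta subunits hold the peptidase sites, and the 19S regulatory particle on its ends binds, unfolds and feeds in the substrate. Interferon-inducible beta subunits can replace the constitutive catalytic ones to give the immunoproteasome, which is known for making peptides that are presented on MHC class I molecules.

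Depth ranged from 16738863 to 28537311 counted read pairs in the embryos, and was 36421545 and 31191117 in the adults. Levels are given as CPM, read pairs counted relative to the depth of the library, after TMM scaling. Fold changes are log2 values of embryo over adult with their standard error (SE), and a gene was called when the adjusted p-value of edgeR’s quasi-likelihood test, adjusted with the Benjamini–Hochberg method over all 19371 genes tested, was below 0.05. Embryos 1 and 4 stood apart from the other libraries. Counted pairs made up 59.7% and 62.8% of all their read pairs, where the lowest and highest of the remaining embryos had 73.9% and 80% and the adults had 84% and 83.7%. The 7 erythroid markers summed to 176458 and 220818 CPM in these embryos and to at most 19577 CPM in any further embryo, and the adults had sums of 745 and 1896 CPM, and the most abundant of them was the embryonic globin gene *Hbb-y* in the embryos and *Hbb-bs* in the adults. Results are therefore also given without both embryos.

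The labelled tissues were checked against their markers. The pouch epithelium genes *Lhx3*, *Pitx1* and *Hesx1* were higher in the embryo, and *Sox2* was higher in the adult (log2 fold change -0.70, adjusted p = 0.0282). Since 1 copy of *Sox2* carries Egfp in the embryos, stage and genotype cannot be told apart for this gene. *Hesx1*, a transcription factor gene of the pouch, had a median of 22.4 CPM in the embryos and 0.339 and 0.562 CPM in the adults. The growth hormone gene *Gh* stood at 53441 and 63814 CPM in the adults and at most at 1.90 CPM in any embryo, and 7 of 8 hormone cell markers were higher in the adult, where 27.4% of all genes were. Of 4 markers of the ventral brain and posterior lobe, 3 were higher in the embryo and *Col25a1* was higher in the adult (log2 fold change -1.16, adjusted p = 0.0469), and *Rax* had a median of 48.4 CPM there against 1.48 and 2.11 CPM in the adults. These 4 genes mark tissue next to the pouch, whose part in the results was not tested. Of 6 endothelial markers 4 were higher in the embryo, as were 4 of 6 markers of connective tissue and 6 of the 7 erythroid markers (3 after the correction for length and GC content), where 24.0% of all genes were. In such bulk samples, fewer cells of a type and less RNA per cell cannot be told apart.

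Most proteasome genes were higher in the embryo. Of the 49 tested, 39 were called higher in the embryo, where 24.0% of all genes tested were, and 3 were called higher in the adult (*Psmb8*, *Psmb9* and *Psme4*), where 27.4% of all genes were. The remaining 7 were not called. Over 4-fold, 12 were higher in the embryo and 2 in the adult, against 11.3% and 14.6% of all genes. The counts in the embryo include *Psmc3ip*, which encodes no proteasome subunit, and *Psma8*, which passed the filter on counts through the embryos alone, and without both they are 37 and 10. The embryo and adult libraries did not overlap for 42 genes that were higher in the embryo and 3 that were higher in the adult, and the same held for 26.2% and 32.9% of all genes tested. The median log2 fold change of the 31 core subunit genes, those of the constitutive 20S core and of the 19S base and lid, was 1.48, and that of all genes tested was -0.04. Without embryos 1 and 4 it was 1.55, and 40 proteasome genes were called higher in the embryo and 3 in the adult, beside 26.9% and 29.9% of all genes. Over 4-fold these were 12 and 2, beside 11.5% and 16.2%.

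Transcript length moved with this comparison. Across all genes tested the median log2 fold change fell from 1.57 where principal transcripts were at most 817 bp long to -1.39 where they were at least 6012 bp long, the lowest and highest of 10 classes of like size. The core subunit genes had a median length of 1540.0 bp, against 2649 bp over all genes tested. Each library was therefore also corrected for transcript length and GC content. After the correction 35 proteasome genes were called higher in the embryo and 3 in the adult, beside 23.1% and 25.2% of all genes. The median of the 31 core genes was then 1.01, and that of all genes tested was -0.02. Part of the length trend was left, with a median over all genes of 0.37 in the shortest class and -0.16 in the longest. In the class from 818 to 1315 bp, which held 17 of the proteasome genes, it was 0.16. Over 4-fold, 2 (*Psma2* and *Psma8*) were higher in the embryo and 2 in the adult after the correction, beside 7.99% and 12.4% of all genes. Without *Psmc3ip* and *Psma8*, 33 were called higher in the embryo after the correction, 1 of them over 4-fold. With embryos 1 and 4 left out as well, 39 were called higher in the embryo and 4 in the adult, beside 27.2% and 29.6% of all genes, and 2 were over 4-fold higher in each group, beside 8.56% and 13.6%.

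**Figure D1:**
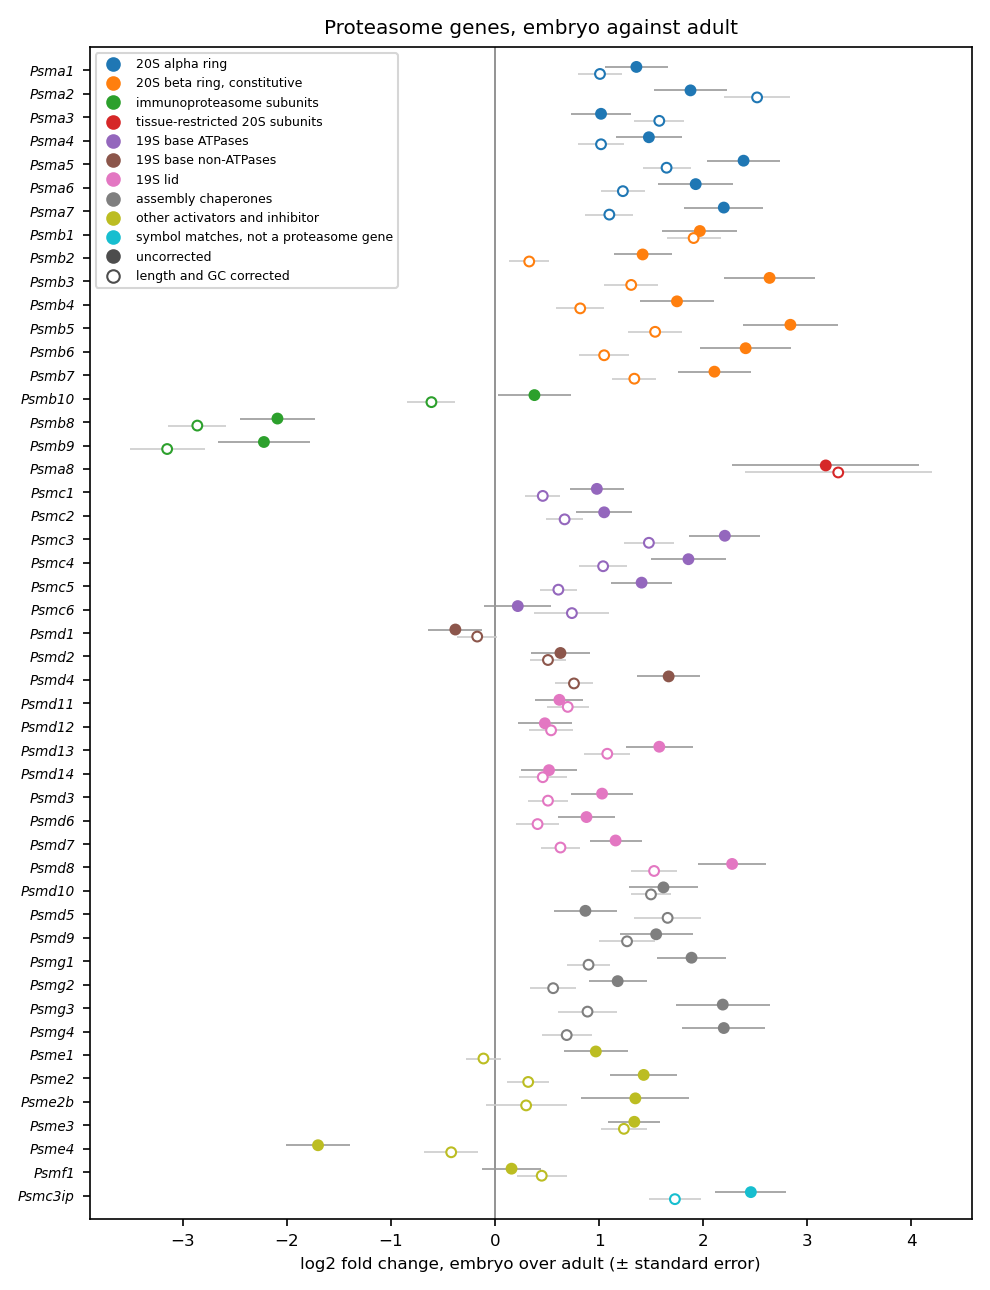
Log2 fold change, embryo over adult, of the 49 proteasome genes tested, by subcomplex, with filled points for the fit without correction, open points for the fit corrected for transcript length and GC content, and bars of 1 SE (7 embryos, 2 adults). *Psmb8* (-2.09) and *Psmb9* (-2.22) lie furthest to the adult side, with and without the correction.

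The alpha ring closes the ends of the core and opens when a regulator docks. All 7 alpha genes were called higher in the embryo, with log2 fold changes from 1.02 to 2.39, and again after the correction, from 1.01 to 2.52. Of all genes tested, 24.0% were called higher in the embryo, and 23.1% after the correction. *Psma5* ranged over the embryos from 270.5 to 519 CPM with a median of 321, and was at 77.6 and 63.4 CPM in the adults. Its log2 fold change of 2.39 (SE 0.35, adjusted p = 9.46e-05) was the largest of the ring, and 1.65 after the correction. *Psma3*, with the smallest change, ranged from 249.7 to 440.1 CPM with a median of 274 in the embryos and was at 145 and 154 CPM in the adults (log2 fold change 1.02, SE 0.29, adjusted p = 0.00980). In each of these genes the lowest embryo lay above both adults. The log2 fold changes of *Psma1*, *Psma2*, *Psma4*, *Psma6* and *Psma7* lay between 1.36 and 2.20. The principal transcripts of *Psma2* and *Psma3*, at 2911 and 2846 bp, are long for this ring. With the median length of each gene’s transcripts in its place, the corrected value of *Psma2* was 2.60 where it had been 2.52, and that of *Psma3* was 1.05 where it had been 1.58. Of the 75-base windows of *Psma5* and *Psma3*, 39.8% and 21.3% also occur in transcripts of other genes, so their counts may be too low.

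The beta ring carries the catalytic sites. All 7 constitutive beta genes were called higher in the embryo, beside 24.0% of all genes, with log2 fold changes from 1.42 to 2.84. After the correction 6 of the 7 were called, beside 23.1% of all genes. The exception was *Psmb2* (0.33, adjusted p = 0.165). It was not called either when the correction was made without embryos 1 and 4 (0.42, adjusted p = 0.0634). With the correction on median transcript length it was called (0.65, adjusted p = 0.0151). *Psmb5*, which encodes the chymotrypsin-like subunit, ranged over the embryos from 51.2 to 169.9 CPM with a median of 120.4, and was at 18.5 and 14.2 CPM in the adults. Its change was the largest of the core genes without the correction (log2 fold change 2.84, SE 0.46, adjusted p = 0.000195) and was 1.54 with it. Of the 75-base windows of its transcript, 40.0% also occur in another annotated transcript, so its count may be too low. *Psmb6*, the caspase-like subunit gene, ranged from 232 to 723 CPM with a median of 462 in the embryos, against 96.3 and 83.5 CPM in the adults (log2 fold change 2.41, SE 0.44, adjusted p = 0.000471, and 1.05 after the correction). *Psmb7*, for the trypsin-like subunit, ranged from 344 to 689.6 CPM with a median of 486 in the embryos, against 118 and 106 CPM in the adults (log2 fold change 2.11, SE 0.35, adjusted p = 0.000227, and 1.34 after the correction). The groups did not overlap in any of these 3 genes, and embryo 7 was the lowest embryo in each. *Psmb2*, with the smallest change of the ring, ranged from 207 to 328 CPM with a median of 249, against 113 and 79.1 CPM in the adults (log2 fold change 1.42, SE 0.28, adjusted p = 0.000979). *Psmb1*, *Psmb3* and *Psmb4* had log2 fold changes between 1.75 and 2.64.

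The promoters of the proteasome genes, whichever way they moved, were searched for 5 patterns of letters, on both strands, in the 250 bases before the start in the RefSeq promoter table (build GRCm38.p6), where 42 of the 50 genes had an entry. All 5 are given. The antioxidant response element core TGACNNNGC, which NFE2L1 and NFE2L2 are known to bind, was present in 5 of the 42 (11.9%) and in 11.5% of all genes in the table. The full element TGACTCAGC, which is 1 form of that core, was in 0 of the 42 and in 0.426% of all genes. The interferon-stimulated element (GAAA, any 2 bases, GAAA) was in 3 (7.14%, against 3.46%), namely *Psmb3*, *Psmd4* and *Psmd9*. The CCAAT box was in 15 (35.7%, against 37.5%). The element of nuclear respiratory factor 1 (NRF1, not NFE2L1), in which GCGCA, any base and GCGC follow each other, was in 6 (14.3%, against 4.23%). Some windows overlap annotated exons. Those of *Psmb8* and *Psmb9* lie in exons over all 250 bases, so both genes were searched inside the annotated gene and not before it. *Psmb5* and *Psmb6*, both catalytic, are shown because they held the antioxidant response element core, and *Psmc4* because it held the NRF1 element. Capitals mark the match, and each sequence runs 5′ to 3′ on the gene’s own strand. A match is a description of the letters and was not tested as a site. The windows lie at chr14:54617996-54618245 on the minus strand (*Psmb5*), where 27 of the bases fall in an annotated first exon of *Psmb5*, at chr11:70525107-70525356 on the plus strand (*Psmb6*), which holds no annotated exon, and at chr7:28050093-28050342 on the minus strand (*Psmc4*), with 9 bases in an annotated first exon of *Psmc4*.
Psmb5: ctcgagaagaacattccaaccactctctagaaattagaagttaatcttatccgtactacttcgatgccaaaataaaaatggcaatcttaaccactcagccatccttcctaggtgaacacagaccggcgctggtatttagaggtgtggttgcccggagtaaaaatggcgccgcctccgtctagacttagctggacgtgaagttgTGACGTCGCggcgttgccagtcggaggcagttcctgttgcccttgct
Psmb6: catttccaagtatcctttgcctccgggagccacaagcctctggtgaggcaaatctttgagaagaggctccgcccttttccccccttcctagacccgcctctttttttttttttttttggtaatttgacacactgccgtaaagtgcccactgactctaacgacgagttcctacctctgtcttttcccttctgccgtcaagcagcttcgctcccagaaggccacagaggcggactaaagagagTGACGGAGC
Psmc4: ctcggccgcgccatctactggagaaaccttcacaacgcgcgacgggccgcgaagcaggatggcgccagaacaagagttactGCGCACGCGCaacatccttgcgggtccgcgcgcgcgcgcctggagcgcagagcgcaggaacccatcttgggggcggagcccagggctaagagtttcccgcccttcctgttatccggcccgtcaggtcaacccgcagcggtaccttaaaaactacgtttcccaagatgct

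Of the 3 immunoproteasome subunit genes, 2 (*Psmb8* and *Psmb9*) were called higher in the adult, where 27.4% of all genes were. *Psmb8* (ENSMUSG00000024338.15, chromosome 17, 34197721 to 34201454), which replaces *Psmb5*, ranged over the embryos from 1.92 to 4.80 CPM with a median of 3.37, and was at 13.4 and 14.5 CPM in the adults. *Psmb9* (ENSMUSG00000096727.3, chromosome 17, 34181987 to 34187764), which replaces *Psmb6*, ranged from 0.866 to 2.93 CPM with a median of 1.79 in the embryos, and was at 7.83 and 8.46 CPM in the adults. Both adults lay above every embryo for each gene. The log2 fold changes were -2.09 for *Psmb8* (SE 0.36, adjusted p = 0.000346) and -2.22 for *Psmb9* (SE 0.44, adjusted p = 0.000870), and the correction for length and GC content took them to -2.86 and -3.15. Without embryos 1 and 4 both were still called, at -2.05 and -2.36. In *Psmb9*, 10.8% of the 75-base windows also occur in a transcript of another gene, and *Tap1* overlaps its exons on the other strand.

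*Psmb10*, which replaces *Psmb7*, was not called. It ranged from 12.6 to 33.5 CPM with a median of 23.6 in the embryos and was at 17.1 and 18.3 CPM in the adults, inside that range (log2 fold change 0.38, SE 0.35, adjusted p = 0.379). The correction turned its sign (log2 fold change -0.61, adjusted p = 0.0436), and so its direction depends on the correction, and on median transcript length it was not called (-0.34, adjusted p = 0.295). In level per length, *Psmb10* was the highest of the 3 in both groups, at 17.6 CPM per kb in the embryo and 13.5 in the adult, against 2.00 and 8.55 for *Psmb8* and 1.30 and 6.02 for *Psmb9*.

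**Figure D2:**
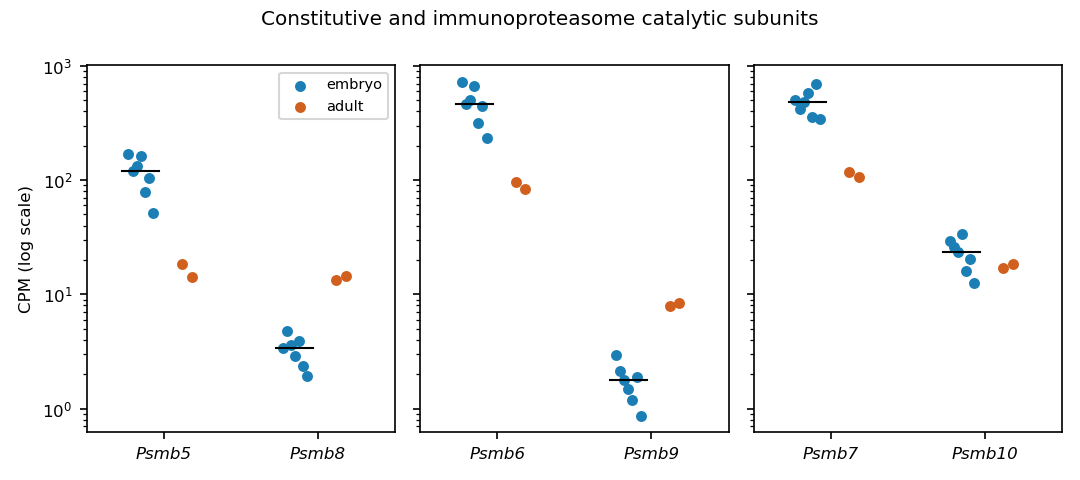
CPM on a log scale of each constitutive catalytic subunit gene beside the immunoproteasome gene that replaces it, with 1 point per library and a line at the median of the 7 embryos. Adult points lie below the embryo points for *Psmb5*, *Psmb6* and *Psmb7*, above them for *Psmb8* and *Psmb9*, and among them for *Psmb10*.

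The ratio of each immunoproteasome gene to its constitutive partner was taken per length in each library. For *Psmb8* over *Psmb5* it ranged from 0.00986 to 0.0274 with a median of 0.0147 in the embryos, and was 0.398 and 0.564 in the adults, a difference of -4.90 on the log2 scale. For *Psmb9* over *Psmb6* it ranged from 0.00132 to 0.00272 with a median of 0.00224, and was 0.0480 and 0.0598 in the adults, a difference of -4.63. For *Psmb10* over *Psmb7* it ranged from 0.0262 to 0.0552 with a median of 0.0430, and was 0.128 and 0.153 in the adults, a difference of -1.75. All 7 embryos lay below both adults in all 3 ratios. The exact permutation test (two-sided, 36 splits of 7 embryos and 2 adults) gave p = 0.0556 for each, and the same after adjustment over the 3 ratios, which is the smallest value that doubling the smaller tail can give. Counted by absolute difference, a convention chosen after seeing the data, the exact two-sided p was 0.0278 for each, the smallest that it can give. Even in the adults the constitutive partner was the higher of each pair per length.

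The markers of immune cells were also measured, because immune cells express the immunoproteasome. Of 11 macrophage markers, 5 were called higher in the embryo and 1, *Ptprc*, in the adult, beside 24.0% and 27.4% of all genes. *Ptprc* was at 3.46 and 9.44 CPM in the adults, against a median of 0.770 CPM in the embryos. Their sum lay between 180.1 and 419 CPM in the embryos and at 123 and 191 CPM in the adults, where *C1qb* had the highest median in the embryos and *Csf1r* was the most abundant in both adults. After the correction, 2 macrophage markers were higher in the adult, beside 25.2% of all genes, and the other 9 were not called. The 5 lymphocyte markers summed to between 0.987 and 8.20 CPM in the embryos and to 3.13 and 6.27 CPM in the adults, with *Cd79b* the most abundant (log2 fold change -0.28, adjusted p = 0.751). Of the 3 tested, 1 (*Cd79a*) was called higher in the adult, and only after the correction, beside 25.2% of all genes. It had at most 11 counts in any embryo and 57 in an adult, and passed the filter through the adults, so its fold change is not given. The T cell gene *Cd3e* was at 0 in 6 embryos and in 1 adult, and a count of 0 allows up to 0.22 CPM in embryo 1 and less in the others (3 counts). The part of these cells in the values of *Psmb8* and *Psmb9* was not tested.

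The tissue-restricted subunit genes were at the edge of detection. *Psma8*, known from the testis, ranged from 0.609 to 2.09 CPM with a median of 0.805 in the embryos, and was at 0.145 and 0.0843 CPM in the adults, which is 6 and 3 counts. Since it passed the filter only through the embryos, its fold change is not given, though it is part of the counts. *Psmb11*, known from the cortex of the thymus, was at most 0.128 CPM in any library.

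The 19S base holds the ATPase ring that unfolds substrates. Of its 6 ATPase genes, 5 were called higher in the embryo, with and without the correction, beside 23.1% and 24.0% of all genes. *Psmc3* ranged from 269 to 529.5 CPM with a median of 426 in the embryos, and was at 90.9 and 84.2 CPM in the adults (log2 fold change 2.21, SE 0.34, adjusted p = 0.000129, and 1.48 after the correction). *Psmc6* ranged from 62.6 to 153 CPM with a median of 88.0 in the embryos, against 73.5 and 86.7 CPM in the adults, and the groups overlapped (log2 fold change 0.22, SE 0.32, adjusted p = 0.576). It was at 0.74 after the correction (adjusted p = 0.109), and was called when the correction was made without embryos 1 and 4 (1.05, adjusted p = 0.00765) or on median transcript length (1.01, adjusted p = 0.0273). The log2 fold changes of *Psmc1*, *Psmc2*, *Psmc4* and *Psmc5* lay between 0.98 and 1.86. Among the scaffold and receptor genes of the base, *Psmd4*, a ubiquitin receptor gene, was higher in the embryo (142 to 268 CPM with a median of 221, against 73.2 and 61.4 CPM), with a log2 fold change of 1.67 (SE 0.30, adjusted p = 0.000452), and 0.76 after the correction. *Psmd1*, which encodes the scaffold subunit RPN2, was not called (81.9 to 133 CPM with a median of 97.5, against 142 and 122 CPM), with a log2 fold change of -0.38 (SE 0.26, adjusted p = 0.236), and -0.17 after the correction. The embryos and adults did not overlap for *Psmd4* and overlapped for *Psmd1*. The other scaffold gene, *Psmd2*, was at 0.63 (adjusted p = 0.0730) without the correction and was called with it (0.51, adjusted p = 0.0283). Without the correction it was called when embryos 1 and 4 were left out (0.77, adjusted p = 0.0235). It reversed when the correction was made on median transcript length (-0.28, adjusted p = 0.346), so its direction depends on the transcript taken.

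The lid removes ubiquitin chains before degradation. Of its 8 genes, 6 were called higher in the embryo, and 6 after the correction, beside 24.0% and 23.1% of all genes. *Psmd8* ranged from 305 to 563 CPM with a median of 458 in the embryos, and was at 100 and 83.3 CPM in the adults (log2 fold change 2.28, SE 0.33, adjusted p = 9.31e-05, and 1.53 after the correction). *Psmd12* had the smallest change (73.0 to 116 CPM with a median of 82.0, against 69.3 and 58.1 CPM), with a log2 fold change of 0.48 (SE 0.26, adjusted p = 0.126). *Psmd14*, the deubiquitinase itself, was also not called (69.4 to 127 CPM with a median of 81.1, against 62.7 and 59.0 CPM, log2 fold change 0.52, SE 0.27, adjusted p = 0.119). In both of these genes every embryo lay above both adults. *Psmd3*, *Psmd6*, *Psmd7*, *Psmd11* and *Psmd13* had log2 fold changes between 0.62 and 1.58. The correction took away the call of *Psmd6* (0.41, adjusted p = 0.121; 0.54, adjusted p = 0.0228 when made without embryos 1 and 4) and gave 1 to *Psmd12* (0.54, adjusted p = 0.0498). *Psmd14* was not called with it (0.46, adjusted p = 0.121), but was when it was made without embryos 1 and 4 (0.65, adjusted p = 0.00452) or on median transcript length (0.80, adjusted p = 0.0144). On median transcript length *Psmd3* (0.36, adjusted p = 0.140), *Psmd6* (0.47, adjusted p = 0.0837) and *Psmd11* (-0.04, adjusted p = 0.877) were not called.

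Genes for assembly chaperones were all called higher in the embryo, 7 of 7, beside 24.0% of all genes, with log2 fold changes from 0.87 to 2.20. After the correction 6 of 7 were called, beside 23.1% of all genes. *Psmg4*, which acts on the 20S core, ranged from 22.7 to 64.7 CPM with a median of 40.8 in the embryos, and was at 11.3 and 8.12 CPM in the adults (log2 fold change 2.20, SE 0.40, adjusted p = 0.000469), and its log2 fold change was 0.69 after the correction (adjusted p = 0.0307). *Psmd5*, a chaperone of the base with a transcript of 4397 bp, had the smallest change (65.5 to 152 CPM with a median of 113, against 59.1 and 62.9 CPM, log2 fold change 0.87, SE 0.30, adjusted p = 0.0264), and 1.66 after the correction. The lowest embryo lay above both adults in both genes. *Psmd9*, *Psmd10*, *Psmg1*, *Psmg2* and *Psmg3* lay between 1.18 and 2.19, and *Psmg2* was the gene that the correction left without a call (0.56, adjusted p = 0.0510). It was called when the correction was made without embryos 1 and 4 (0.60, adjusted p = 0.0172) or on median transcript length (0.97, adjusted p = 0.00342), whereas *Psmd9* lost its call on median transcript length (0.61, adjusted p = 0.0660).

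Among the other activators, *Psme1* and *Psme2* encode the PA28 regulator, which is interferon-inducible like the immunoproteasome. Their calls in the embryo did not outlast the correction. *Psme2* (129.7 to 293 CPM with a median of 181, against 78.2 and 73.0 CPM) had a log2 fold change of 1.43 (SE 0.32, adjusted p = 0.00233), and 0.32 after the correction (adjusted p = 0.211). *Psme1* went from 0.97 (adjusted p = 0.0166) to -0.11 (adjusted p = 0.629). *Psme2* shares 51.7% of its 75-base windows with *Psme2b*, and *Psme2b* 60.2% with *Psme2*, which makes both counts uncertain. *Psme2b* was at 1.35 (adjusted p = 0.0433) and after the correction at 0.30 (adjusted p = 0.553). *Psme3*, the nuclear PA28 gamma, was at 1.34 without the correction and 1.24 with it, called both times. With the correction on median transcript length it was at 0.52 (adjusted p = 0.0353).

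*Psme4* encodes PA200 and, at 6491 bp, has the longest principal transcript of the 49 genes. It ranged from 15.7 to 36.9 CPM with a median of 22.2 in the embryos, and was at 86.0 and 71.5 CPM in the adults (log2 fold change -1.70, SE 0.31, adjusted p = 0.000488). Both adults lay above every embryo. After the correction the log2 fold change was -0.42 (adjusted p = 0.195), and -0.59 with embryos 1 and 4 left out as well (adjusted p = 0.0494). With the median length of its transcripts, 657 bp, it was -2.07 (adjusted p = 4.86e-06), so its corrected value depends on which transcript is taken. *Psmf1*, an inhibitor of the 20S core, was not called (31.5 to 57.6 CPM with a median of 44.9, against 41.5 and 38.0 CPM, log2 fold change 0.16, SE 0.28, adjusted p = 0.657). *Psmc3ip* matches the symbol rule, but encodes a protein of meiotic recombination. It was higher in the embryo (log2 fold change 2.46, SE 0.34, adjusted p = 6.36e-05, and 1.73 after the correction).

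**Figure D3:**
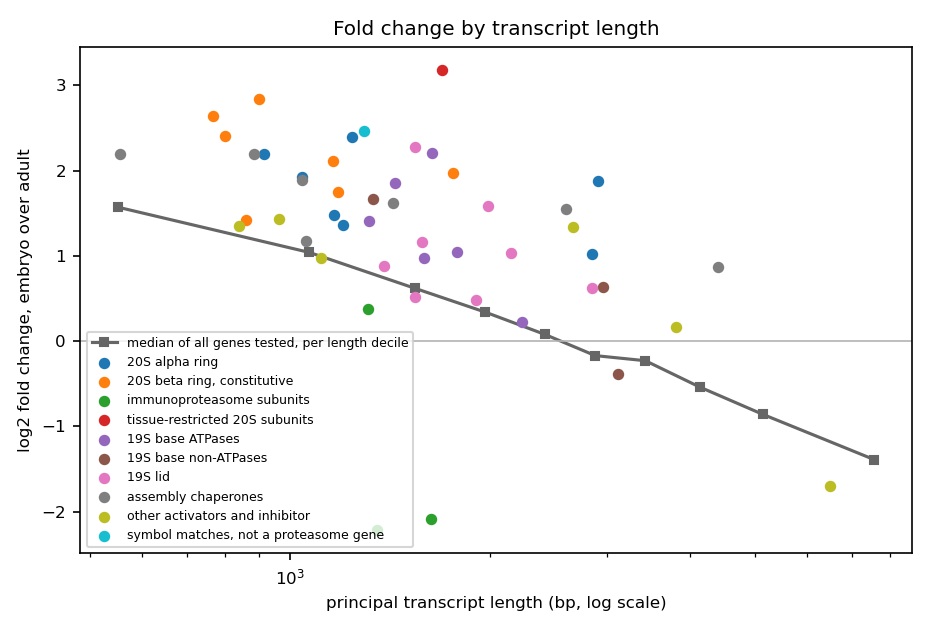
Log2 fold change, embryo over adult, against principal transcript length in bp on a log scale, for the 49 proteasome genes tested, with squares at the median fold change and median length of all genes tested in each of 10 length classes. Most subunits lie above the line of medians, and *Psmb8*, *Psmb9* and *Psmb10* lie furthest below it.

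Across the 31 core genes, log2 fold change and log10 transcript length had a Pearson correlation of -0.68 and a Spearman correlation of -0.65. After the correction these were -0.09 and -0.20. These are descriptions over genes of the same complex measured in the same libraries, and genes are not replicates. Set against the median of the genes in the same length class, *Psma2* stood 2.05 higher on the log2 scale, *Psmb5* 1.80, *Psmd8* 1.66 and *Psmc3* 1.58 higher, whereas *Psmb8* stood at -2.71, *Psmb9* at -2.84 and *Psmb10* at -0.66.

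Per kilobase of principal transcript, the 14 constitutive 20S genes had a median level of 328 CPM per kb in the embryo and 96.1 CPM per kb in the adult. *Psma7* was the highest in the embryo, at 684 CPM per kb, and *Psma3* the lowest, at 106 CPM per kb. In the adult, *Psmb4* was the highest at 164 CPM per kb and *Psmb5* the lowest at 18.2 CPM per kb. The 17 genes of the base and lid had a median of 108 CPM per kb in the embryo and 50.5 CPM per kb in the adult. The counted level per length thus differed 6.45-fold between the highest and lowest 20S genes in the embryo and 9.01-fold in the adult. The lowest of them, *Psma3* and *Psmb5*, have 21.3% and 40.0% of their windows in common with other transcripts, and pairs that fit more than 1 place were not counted, so the ratios may include such a loss. With the union of exons as the length, these were 4.32-fold and 5.46-fold. *Psmb4* was then the highest 20S gene in both groups, at 335 CPM per kb in the embryo and 99.4 in the adult. The median levels of the 20S genes were then 173 and 38.6 CPM per kb.

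**Figure D4:**
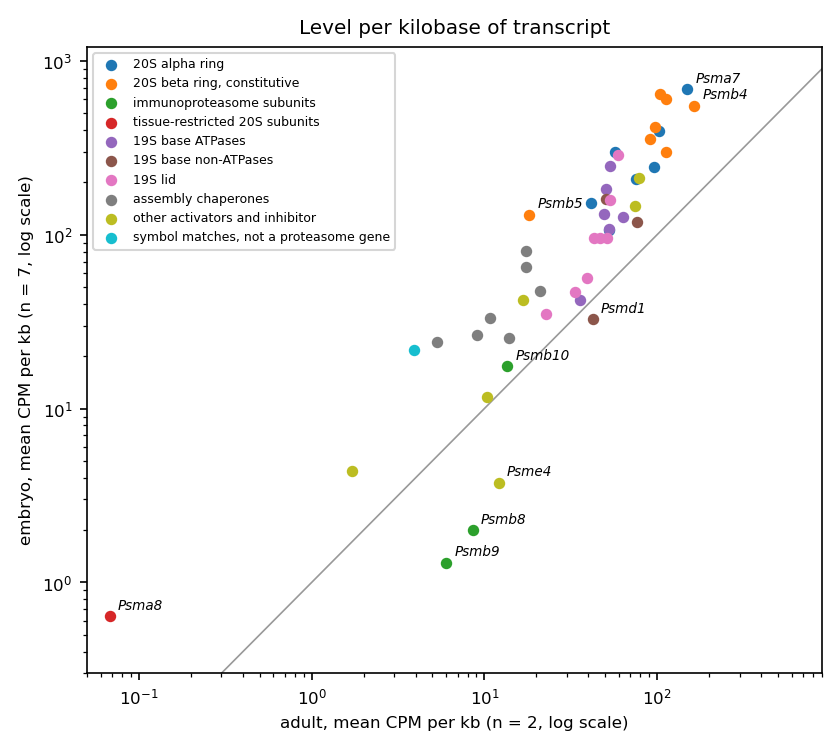
Mean CPM per kb of principal transcript in the embryo (n = 7) against the adult (n = 2), both on log scales, with the line of equal levels. Most genes lie above the line, and *Psmb8*, *Psmb9*, *Psme4* and *Psmd1* lie below it.

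Between the embryos, the summed level of the 31 core genes was lowest in embryo 7, at 6861 CPM, and highest in embryo 6, at 12035 CPM. It was 9283 and 10758 CPM in embryos 1 and 4, whose erythroid markers stood apart, and 3244 and 2928 CPM in the adults. The coefficient of variation over the embryos had a median of 22.5% over the 31 genes, and was lowest for *Psmd11* at 9.19% and highest for *Psmb5* at 36.6%.

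**Figure D5:**
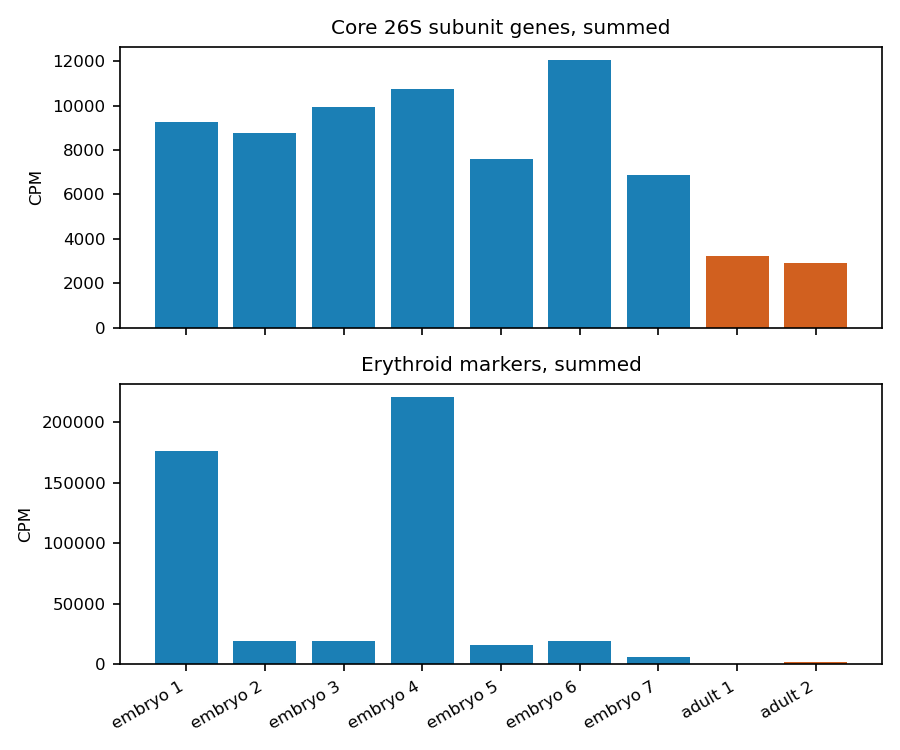
Summed CPM of the 31 core 26S subunit genes and of the 7 erythroid markers in each of the 9 libraries. The core sum is 6861 to 12035 CPM in the embryos and 3244 and 2928 CPM in the adults, and the erythroid sum is far higher in embryos 1 and 4.

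Genes that work with the proteasome under other symbols were measured beside these. Of 18, 4 were called higher in the embryo and 2 in the adult, beside 24.0% and 27.4% of all genes, and after the correction 6 and 1, beside 23.1% and 25.2%. *Pomp*, which matures the 20S core, ranged from 279 to 494 CPM in the embryos and was at 93.7 and 83.1 CPM in the adults (log2 fold change 2.02, SE 0.32, adjusted p = 0.000187). *Sem1*, a small lid subunit gene, had a log2 fold change of 2.47 (SE 0.40, adjusted p = 0.000220). The ubiquitin receptor gene *Adrm1* was at 0.94 (adjusted p = 0.0159) and at 0.16 after the correction (adjusted p = 0.474). *Ecpas*, a scaffold gene with a transcript of 7045 bp, was higher in the adult without the correction (log2 fold change -2.43, adjusted p = 2.22e-05) and with it (-1.11, adjusted p = 0.00116). The deubiquitinase genes *Uchl5* (-0.12, adjusted p = 0.761) and *Usp14* (-0.57, adjusted p = 0.0678) and the nuclear import factor gene *Akirin2* (0.42, adjusted p = 0.142) were not called. After the correction *Usp14* was called higher in the embryo (0.61, adjusted p = 0.0483), so its direction depends on the correction.

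*Uba6*, which encodes a ubiquitin-activating enzyme, was higher in the adult without the correction (log2 fold change -1.86, adjusted p = 0.0171) and was not called with it (-0.56, adjusted p = 0.251). Of 10 regulators of proteasome gene transcription, 1 was called higher in the embryo and 6 in the adult, beside 24.0% and 27.4% of all genes. After the correction 4 were called higher in the adult, beside 25.2% of all genes, and the other 6 were not called. *Nfe2l1*, which encodes the factor that raises proteasome gene transcription when the proteasome is inhibited, ranged from 92.8 to 202 CPM in the embryos and was at 275 and 288 CPM in the adults (log2 fold change -0.92, SE 0.30, adjusted p = 0.0191). *Stat3* had the largest change of this list towards the adult (-2.30, adjusted p = 0.000172), and *Maff* the largest towards the embryo without being called (0.85, adjusted p = 0.213).

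Of 14 genes of the interferon response and antigen presentation, 13 were tested, 9 were called higher in the adult and 1 in the embryo, beside 27.4% and 24.0% of all genes, and after the correction 10 and 1, beside 25.2% and 23.1%. *Nlrc5*, the activator of MHC class I genes, had at most 4 counts in any embryo and was at 2.88 and 3.96 CPM in the adults. It passed the filter on counts through the adults alone, so its fold change is not given, though it is part of both adult counts. *Ifngr2*, a subunit gene of the interferon gamma receptor, was higher in the embryo (log2 fold change 1.40, adjusted p = 0.00894). The other 3 tested were not called without the correction. No test was made of whether these genes moved with *Psmb8* and *Psmb9*.

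Other multisubunit complexes were measured beside the proteasome. Of 8 CCT chaperonin genes 6 were called higher in the embryo, of 10 COP9 signalosome genes 8 (and 1 in the adult), and of 14 eIF3 genes 9 (and 1 in the adult), beside 24.0% of all genes in the embryo and 27.4% in the adult. The largest and smallest changes were those of *Cct5* (log2 fold change 1.60) and *Cct8* (0.33), of *Cops9* (2.75) and *Cops2* (-1.22), and of *Eif3k* (2.78) and *Eif3a* (-1.61). The median log2 fold changes of the 3 complexes were 1.02, 1.23 and 1.63, and after the correction 0.84, 0.93 and 1.09, beside 1.48 and 1.01 for the core proteasome genes. The difference between these complexes and the proteasome was not tested.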

How the data were processed

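The authors made directional poly(A) libraries with an input of 50 ng, read both ends for 75 bp and, per the labels, used Trimmomatic 0.39 and STAR 2.7.5b on mm10. The deposited files hold raw counts of read pairs per gene, with no normalisation, in 55450 genes. Column 4, which counts pairs from the strand of the gene, was taken. The 7 embryos and 2 adults are separate animals, and the replicate numbers only number them. Sex is not given per sample and was not used.

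Counts were scaled with TMM and fitted with stage as the only term by the quasi-likelihood test of edgeR 4.0.16 (R 4.3.3), on the 19371 genes whose counts averaged 5 or more. The Benjamini–Hochberg adjustment ran over all of them. The SE is the absolute log2 fold change divided by the square root of the F statistic. With 2 adults, the adult spread rests on a single difference and borrows from the other genes. The correction took a natural spline (5 degrees of freedom) of log2 deviation on transcript length and GC content out of each library. Principal transcripts were from GENCODE M21, matched on identifier. The fit was tested on simulated counts. Ratios per length were tested by exact permutation over libraries, doubling the smaller tail.

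DESeq2 1.42.0 was an alternative, with others of scaling, filter, count column, fold threshold, replicate block and left-out libraries. The correction without embryos 1 and 4, the correction on median transcript length, and permutation p-values by absolute difference were chosen after seeing the data. The members and the lists were chosen with earlier results of these data known. The text names every member, with the range and median of the embryos and both adult values for the immunoproteasome genes, their partners and the extremes of each subcomplex. From the companion lists it names genes with the largest change each way, not all of which are used here, plus *Pomp*, *Adrm1*, *Sem1*, *Uchl5*, *Usp14*, *Ecpas*, *Nfe2l1* and *Akirin2*. The 5 promoter patterns were also chosen after seeing the data. *Psmd14*, *Psme1* to *Psme3*, *Psmf1* and the marker genes were named for their role or their level.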

Additional observations from a re-analysis of the deposited data

Results flagged for a closer look

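In 3 of the 49 genes tested, embryo 6 lay far above the other 6 embryos, by the gap to its nearest neighbour over the range of the group. The gap was 0.599 of the range for *Psma3*, 0.651 for *Psma4* and 0.647 for *Psmd14*. Chance alone would single out about 1 in 20 independent groups, and these genes were measured in the same libraries and are not independent. Embryo 6 also had the highest core sum. The calls for *Psma3* and *Psma4* held without it, and *Psmd14* was not called with or without it.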

How the results depend on the processing

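The direction of the 49 proteasome genes tested was kept under DESeq2’s Wald test, DESeq2 size factors, filterByExpr, no filter on low counts, the unstranded count, and without embryos 1 and 4. Scaling to library size alone moved the median of all genes to -0.26. It left 31 proteasome genes called higher in the embryo and 3 in the adult. Of all 19371 genes, 3573 and 5554 were (4650 and 5298 in the main fit). With this scaling *Psmf1* turned to -0.04. With no filter on low counts, *Psmd11* (0.63, adjusted p = 0.111) and *Psme2b* (1.34, adjusted p = 0.0905) lost their calls. *Psmd2* gained a call under DESeq2’s Wald test (0.59, adjusted p = 0.0410).

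With the length and GC correction, the embryo had 2 genes over 4-fold and the core median was 1.01 (2 and 1.03 without embryos 1 and 4 as well, 4 and 1.05 on median transcript length). The embryo count over 4-fold was 7 on library size alone, and over 2-fold the main fit gave 34. The test against a fold change of 4 left 0 in the embryo and 0 in the adult. The adult count over 4-fold was 1 on unstranded counts and 0 with the replicate block. For these settings, and for median transcript length, the share of all genes over the same fold is not given. These counts therefore do not show whether the proteasome genes differ from genes at large. With the correction *Psmb10* was at -0.61, *Psme1* at -0.11, *Uchl5* at 0.04, *Usp14* at 0.61, *Akirin2* at -0.04 and the endothelial marker *Kdr* at 0.07, all reversed. Without embryos 1 and 4 as well these were -0.73 (*Psmb10*), -0.14 (*Psme1*), 0.17 (*Uchl5*), 0.78 (*Usp14*, adjusted p = 0.00450) and 0.01 (*Kdr*). On median transcript length they were -0.34 (*Psmb10*), -0.09 (*Psme1*), 0.35 (*Uchl5*), 0.58 (*Usp14*) and 0.20 (*Kdr*), and *Psmd1* (0.16), *Psmd2* (-0.28), *Psmd11* (-0.04) and the connective tissue marker *Dcn* (0.12) also reversed. The cause was not tested.

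The replicate block was fitted on replicates 1 and 2 alone, which leaves 4 libraries. With it 32 proteasome genes were called higher in the embryo and 2 in the adult. Of the 19897 genes tested there, 3295 and 4095 were (4650 and 5298 of 19371 in the main fit). *Psmb9* (-1.66, adjusted p = 0.0658) was not called. *Cd79b* (0.83), *Kdr* (0.14), *Dcn* (0.08) and the hormone gene *Tshb* (0.00) reversed there. The numbers do not pair animals, and deviations of the same number correlated at 0.01 across genes.

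Leaving out each embryo in turn gave 37 to 40 proteasome genes higher in the embryo, beside 4396 to 5192 of all genes tested. In the adult it gave 3 each time, beside 4821 to 5526. Over 4-fold the counts of proteasome genes were 12 to 14 and 1 to 2, and the shares of all genes are not given for these. The adult count over 4-fold was 1 without embryo 6 and 1 without embryo 7, where *Psmb8* was at -1.99. With any single library left out, embryo or adult, the core median ran from 1.40 to 1.63. The log2 differences in ratio ran from -5.16 to -4.65 (*Psmb8* over *Psmb5*), -4.79 to -4.47 (*Psmb9* over *Psmb6*) and -1.88 to -1.63 (*Psmb10* over *Psmb7*). With a single adult, which is then assumed to vary like the embryos, fewer genes passed, both among the proteasome genes and among all genes. The core median was then 1.63 without adult 1 and 1.51 without adult 2. When either adult was left out, *Psma3*, *Psma8*, *Psmc1*, *Psmd3*, *Psmd5*, *Psmd6*, *Psmd11*, *Psme1* and *Psme2b* lost their calls (adjusted p from 0.0511 to 0.262), and without adult 2 also *Psmc2* (0.88, adjusted p = 0.104) and *Psmg2* (1.03, adjusted p = 0.0695). *Psmd2* was called without embryo 1 (0.73, adjusted p = 0.0299), *Psmd11* was not without embryo 2 or 5, and *Psme2b* not without embryo 2, 4, 5 or 6. *Cd79b* ranged from -0.70 to 0.01 (without adult 2) and *Dcn* from -0.47 to 0.05 (without adult 1). By absolute difference the exact two-sided p of the ratio differences (-4.90, -4.63 and -1.75) was 0.0278.

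The tests rest on only 2 adults, so the spread between adult animals is poorly known. Stage cannot be told apart from the change in cell types, RNA length profile or dissected tissue. RNA per cell was not measured, so CPM values are relative. Counts came from uniquely placed pairs, and genes with processed pseudogenes may be undercounted. The correction rests on 1 transcript per gene. Protein and proteasome activity were not measured here. *Psmb8* and *Psmb9* had few counts in the embryos, with means of 76.1 and 38.0.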
